A study of Mus musculus with 5 samples.

Results

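S100g, St3gal6 and Mpped2 are 3 mouse genes that ranked near the top of the expression ratios of Nkx2.5-positive cardiac progenitors, although none of them is a marker of heart muscle. They were selected on the measured log2 ratios of the Nkx2.5 comparisons, so their ratios in the comparisons of Nkx2.5 cells are given as a description and carry no test. They are 3 of 24801 genes and unnamed transcripts on the array, where the brightest probe stands for each gene, and 4 of 28845 probes read them. The populations came from mouse embryoid bodies, aggregates in which stem cells differentiate in culture, as cells positive for 1 marker each. Rex1 cells were undifferentiated stem cells of day 0, Bra (Brachyury) cells were early mesoderm of day 4.5, Flk1 cells were cardiac mesoderm of day 4.5, and Nkx2.5 cells were cardiac progenitors of day 7.5. Pairs of populations were hybridised on 5 oligonucleotide arrays, 1 for each of Bra and Flk1 over Rex1 and 1 for Nkx2.5 over each of the other populations, with the population named first in Cy5 and the other in Cy3. The sources used here name neither the stem cell line nor the way in which marker-positive cells were isolated, nor do they say whether 1 RNA extract served several arrays.

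The 3 genes belong to unrelated families. S100g encodes calbindin-D9k, a small cytosolic calcium-binding protein of the S100 family that is known from intestine, uterus and placenta and responds to vitamin D in the intestine. St3gal6 encodes a sialyltransferase of the Golgi apparatus, which adds sialic acid to terminal galactose of glycoproteins and glycolipids and takes part in making the selectin ligand sialyl Lewis x. Mpped2 encodes a metallophosphodiesterase that is known mainly from the fetal brain, and its substrates in cells are not well settled. In populations measured as bulk RNA, more cells of a type and more RNA per cell cannot be told apart.

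Every pair had a single array and dyes were not exchanged, so no value has a spread between samples. A comparison was read on the array that carried both populations, here called the direct reading, and a second time from the remaining arrays of the same triangle. To count as higher or lower, a gene needed readings that were each at least 1 in size on the log2 scale, a fold of 2, with the same sign. The brighter population also had to be well above background, meaning a net signal over percentile 95 of the array's 96 negative control spots in that channel. Over all genes the gap between the readings had an SD of 0.391 in the triangle with Bra and 0.439 in that with Flk1, from which the error of a single array averages 0.24 log2 units. That error covers hybridisation, and a dye bias that a probe keeps on every array counts in it only in part. It cannot be taken as the spread between cultures. Whether any of that spread enters it is not known, since RNA extracts may have been shared between arrays. In Cy5, 92.2% to 95.2% of probes were well above background, and in Cy3 the share was 77.6% to 84.4% on the Rex1 arrays and 90.2% and 91.5% on the others. Of the sort markers, Zfp42 (Rex1) was lower in each of the 3 comparisons with Rex1, at direct ratios of -1.74, -1.76 and -1.68 in Bra, Flk1 and Nkx2.5 cells, where 0.222%, 0.266% and 0.702% of all genes were lower. Nkx2-5 had direct ratios of 0.53, 0.75 and 1.40 over Rex1, Bra and Flk1, with second readings of 0.91, 0.76 and 0.63, and did not pass the rule, nor did T in Bra over Rex1 (1.07 and 0.73) or Kdr in Flk1 over Rex1 (0.68 and 0.64).

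In Nkx2.5 over Rex1 all 3 genes passed the rule as higher, where 2.42% of all genes did. S100g and St3gal6 also passed for Nkx2.5 against Bra and against Flk1, where the shares of all genes were 0.274% and 0.298%. Mpped2 passed in neither. These contrasts chose the genes, so nothing is read from the shares. Between the earlier populations, whose direct arrays the choice did not use, Mpped2 was higher in Bra over Rex1, where 1.15% of genes passed and its Rex1 signal was below the threshold. That call is not free of the choice, since its second reading comes from the Nkx2.5 arrays. It was lost when blocks of the array were centred on their medians, without background subtraction and in the authors' log2 values. None of the 3 passed in Flk1 over Rex1, where 0.685% did.

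**Figure D1:**
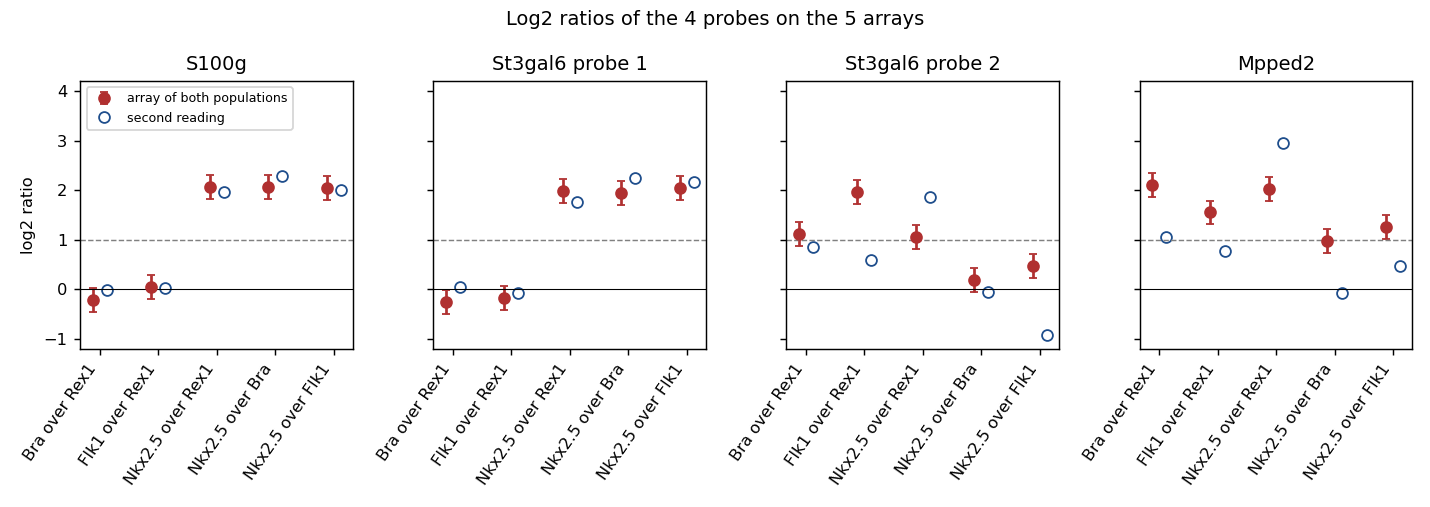
Log2 ratio of each of the 4 probes (y axis) on each of the 5 arrays (x axis). Filled points are the direct readings with the average error of 1 array, 0.24, as bars, open circles are the second readings, and the dashed line marks a log2 ratio of 1. S100g and the first St3gal6 probe lie near 2 on the 3 Nkx2.5 arrays and near 0 on the other arrays, whereas Mpped2 is at 1.55 and 2.11 where Nkx2.5 RNA was absent.

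S100g lies on chromosome X at chrX:162961992-162964599 (GRCm38.p6), a protein-coding gene of 2608 bp. Its single probe was named Calb3 in the scanner data, an older name of the gene, and was matched by RefSeq accession. The promoter of this gene, 250 bases before to 50 after the annotated start (RefSeq, GRCm38.p6), is shown because the gene had nearly the same ratio over all 3 other populations. It spans chrX:162964550-162964849 on the minus strand and is printed from 5′ to 3′ along the gene, with motif matches in capitals:

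S100g: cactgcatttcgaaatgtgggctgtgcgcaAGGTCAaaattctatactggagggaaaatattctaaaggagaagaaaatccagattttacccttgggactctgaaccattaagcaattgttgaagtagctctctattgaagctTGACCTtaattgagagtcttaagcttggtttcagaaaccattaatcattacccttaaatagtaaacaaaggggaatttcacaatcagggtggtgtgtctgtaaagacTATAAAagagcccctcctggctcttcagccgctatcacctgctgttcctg

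The first capitals, AGGTCA, are the half-site bound by nuclear receptors, a family that includes the vitamin D and oestrogen receptors, and the next, TGACCT, are its reverse complement. They begin at -220 and -107 from the start, and the last, TATAAA, the TATA box, begins at 1, the annotated start itself. Counted on both strands, and with overlaps between motifs kept, AGGTCA occurred in 16.3% of 32851 promoter windows of this length and TATAAA in 13.6%. The Nkx2.5 element TNAAGTG, the GATA element GATAAG and the MEF2 element (CTA, any 4 bases, then TAG), which occurred in 11.5%, 7.4% and 3.7% of windows, had no match in this window. A match in letters is not a binding site.

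S100g was about equally higher in Nkx2.5 cells over each of the other populations and differed little among those. Its net signal, after subtraction of the background, was 6099 in Nkx2.5 cells and 1467 in Rex1 cells on the array of both. It was 12280.5 in Nkx2.5 cells and 4781.5 in Bra cells, and 11631 in Nkx2.5 cells and 2889 in Flk1 cells. On the arrays without Nkx2.5 RNA it was 1852 in Bra cells and 1347.5 in Rex1 cells, and 1091.5 in Flk1 cells and 913 in Rex1 cells. All probes of the members had a higher net signal in Cy5 than in Cy3 on every array. Net signals of the 2 channels therefore do not compare populations, for which the normalised ratios are used. Rex1 cells passed the background threshold on 1 of 3 arrays, by a signal 1.19 times the threshold, while the other populations passed it on all of theirs.

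The direct log2 ratios of S100g were 2.06 over Rex1, 2.06 over Bra and 2.04 over Flk1, which are folds of 4.16, 4.17 and 4.10. The second readings were 1.96, 2.28 and 2.01. Direct and second reading thus differed by 0.22 at most, less than the SD of that gap over all genes. In Bra over Rex1 the readings were -0.22 and -0.01, and in Flk1 over Rex1 they were 0.05 and 0.02. Among 24801 genes the direct ratios ranked 60 over Rex1, 11 over Bra and 18 over Flk1. In the authors' deposited log2 values the same ratios were 1.64, 1.46 and 1.55, and without any background subtraction they were 0.61, 0.90 and 0.90, which ends the call in all 3 comparisons.

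St3gal6 lies on chromosome 16 at chr16:58469742-58524260 (GRCm38.p6), a protein-coding gene of 54519 bp. Both of its probes carried the older name Siat10. Probe 1 was matched by RefSeq accession and was the brighter, and probe 2, designed on a cDNA clone, was matched through the synonym. RefSeq gives this gene a pair of promoter windows, both on the minus strand. They are shown because the data cannot tell which start the probes report, and the windows differ in base composition, with 38.7% and 64.7% G and C. Window 1 spans chr16:58524204-58524503 and window 2 spans chr16:58523377-58523676, with motif matches in capitals:

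St3gal6 window 1: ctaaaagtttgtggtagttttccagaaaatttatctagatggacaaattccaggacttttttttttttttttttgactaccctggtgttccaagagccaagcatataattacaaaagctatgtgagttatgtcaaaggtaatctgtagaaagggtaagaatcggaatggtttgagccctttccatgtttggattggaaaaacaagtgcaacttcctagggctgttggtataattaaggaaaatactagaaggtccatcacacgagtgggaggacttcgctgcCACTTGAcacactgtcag

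St3gal6 window 2: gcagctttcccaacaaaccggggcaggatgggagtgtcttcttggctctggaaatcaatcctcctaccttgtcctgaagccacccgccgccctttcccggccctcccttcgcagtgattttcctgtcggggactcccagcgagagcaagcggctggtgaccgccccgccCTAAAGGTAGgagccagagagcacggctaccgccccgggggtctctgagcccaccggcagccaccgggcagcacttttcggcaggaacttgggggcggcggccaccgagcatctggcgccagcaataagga

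Over all windows the median share of G and C was 52.7%. The capitals in window 1, CACTTGA, match the Nkx2.5 element TNAAGTG on the opposite strand and begin at 33. The capitals in window 2, CTAAAGGTAG, match the MEF2 element and begin at -81. None of the other motifs matched in either window.

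St3gal6 probe 1 had the same shape as S100g, with ratios near 4-fold for Nkx2.5 over every other population. Its net signal was 10237.5 in Nkx2.5 cells and 2334.5 in Rex1 cells, 12475.5 in Nkx2.5 cells and 5222 in Bra cells, and 11159 in Nkx2.5 cells and 2770 in Flk1 cells. On the other arrays it was 2568.5 in Bra cells and 1830 in Rex1 cells, and 1896.5 in Flk1 cells and 1777 in Rex1 cells. This was the only one of the 4 probes that was well above background in every population on every array, so each of its folds has a measured signal on both sides.

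The direct log2 ratios of St3gal6 probe 1 were 1.98 over Rex1, 1.94 over Bra and 2.05 over Flk1, folds of 3.94, 3.83 and 4.14, and the second readings were 1.77, 2.24 and 2.16. In Bra over Rex1 the readings were -0.26 and 0.04, and in Flk1 over Rex1 they were -0.18 and -0.07. The earlier populations were therefore within 0.26 of each other on this probe, close to the error of 1 array. By direct ratio the gene ranked 80 over Rex1, 12 over Bra and 16 over Flk1. The authors' deposited log2 values were 1.72, 1.36 and 1.55, and without background subtraction the ratios were 0.65, 0.79 and 0.76, again under the rule in all 3 comparisons.

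Probe 2 of St3gal6 did not show that shape. Its net signal was 4094.5 in Nkx2.5 cells and 1764 in Rex1 cells, 8241 in Nkx2.5 cells and 8102.5 in Bra cells, and 5673 in Nkx2.5 cells and 3317 in Flk1 cells. It was 2940 in Bra cells and 915.5 in Rex1 cells, and 2297 in Flk1 cells and 293 in Rex1 cells, with both of these Rex1 signals below the threshold. After normalisation, the direct ratios of Bra and Flk1 over Rex1 were 1.11 and 1.97 for this probe, where probe 1 had -0.26 and -0.18. Without background subtraction the ratios of Bra and Flk1 over Rex1 turned to -0.0521 and -0.00249, and the medians of the probe's block were 0.49 and 0.68 on these arrays.

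The readings of probe 2 were 1.05 and 1.87 in Nkx2.5 over Rex1, 0.19 and -0.06 in Nkx2.5 over Bra, and 0.47 and -0.92 in Nkx2.5 over Flk1. They were 1.11 and 0.86 in Bra over Rex1 and 1.97 and 0.59 in Flk1 over Rex1. The triangle through Flk1 failed to close by 1.38, against an SD of 0.439 over all genes, so the 2 readings of Nkx2.5 over Flk1 differ in sign. The probes of this gene disagree on Bra and Flk1 over Rex1. They also disagree on Nkx2.5 over Bra and over Flk1, where the direct ratios of probe 1 were 1.94 and 2.05. Both give Nkx2.5 over Rex1 as above 1, although the direct ratio of probe 2 fell to 0.70 there with blocks centred on their medians. If the value for the gene were the median of its probes, the ratios of Nkx2.5 would be 1.52 over Rex1, 1.06 over Bra and 1.26 over Flk1, and the gene would pass over Rex1 and Bra and not over Flk1. Whether the probes read different transcripts was not tested, since the probe sequences were not used here.

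**Figure D2:**
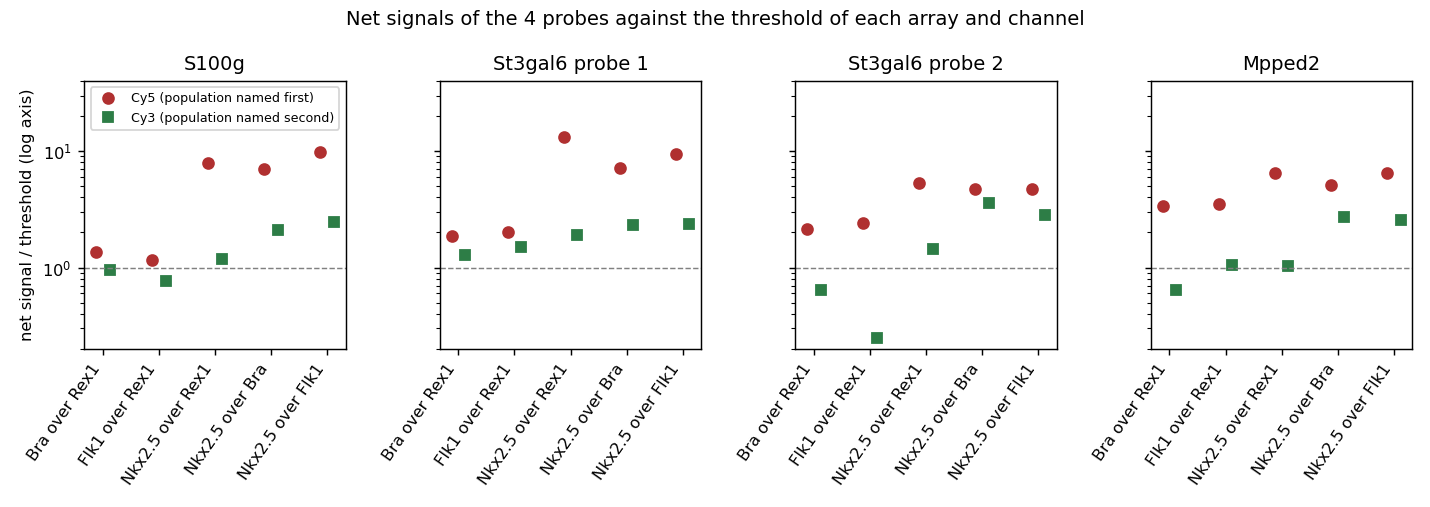
Net signal divided by the background threshold of the same array and channel (y axis, log scale) for the 4 probes on the 5 arrays (x axis), with circles for Cy5 and squares for Cy3 and a dashed line at the threshold. The Rex1 signals, in Cy3 on the first 3 arrays, fall below the line on 1 or 2 of 3 arrays for every probe but the first St3gal6 probe, and St3gal6 probe 2 has the lowest, 293 against a threshold of 1179.

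Mpped2 lies on chromosome 2 at chr2:106693181-106868361 (GRCm38.p6), a protein-coding gene of 175181 bp. Its single probe carried a RIKEN clone name, 2700082O15Rik, and was matched through the synonym alone. RefSeq gives 3 promoter windows on the plus strand, of which the first pair, with 60.0% and 72.3% G and C, had no match to any of the 5 motifs. The remaining window, chr2:106694562-106694861, with 45.3% G and C, is shown as the only one with matches, in capitals:

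Mpped2 window 3: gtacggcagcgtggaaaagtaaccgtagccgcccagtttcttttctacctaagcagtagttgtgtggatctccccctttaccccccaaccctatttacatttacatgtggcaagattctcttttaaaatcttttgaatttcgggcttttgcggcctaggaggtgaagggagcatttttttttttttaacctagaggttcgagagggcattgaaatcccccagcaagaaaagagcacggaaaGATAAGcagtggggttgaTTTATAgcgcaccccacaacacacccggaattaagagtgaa

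The capitals mark GATAAG, which begins at -9, and TTTATA, the TATA box on the opposite strand, which begins at 10.

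By the rule Mpped2 was higher in Nkx2.5 cells over Rex1 cells, and in Bra cells over Rex1 cells with a second reading of only 1.05. It did not pass in Nkx2.5 cells over either population of day 4.5. Its net signal was 5010 in Nkx2.5 cells and 1262.5 in Rex1 cells, 8961.5 in Nkx2.5 cells and 6131 in Bra cells, and 7730 in Nkx2.5 cells and 2976.5 in Flk1 cells. It was 4655 in Bra cells and 907.5 in Rex1 cells, and 3358.5 in Flk1 cells and 1249.5 in Rex1 cells. The net signal was higher in Cy5 than in Cy3 on all 5 arrays, as it was for the other probes, so it does not order the populations. Rex1 cells passed the threshold on 2 of their 3 arrays, barely, by signals 1.03 times the threshold beside Nkx2.5 and 1.06 times beside Flk1.

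In Nkx2.5 over Rex1 the readings of Mpped2 were 2.03 and 2.95, and the direct fold was 4.10. They were 2.11 and 1.05 in Bra over Rex1, where the Rex1 signal was below the threshold and no fold is given, and 1.55 and 0.77 in Flk1 over Rex1, a direct fold of 2.93. Against the day 4.5 populations they were 0.98 and -0.07 in Nkx2.5 over Bra and 1.26 and 0.48 in Nkx2.5 over Flk1. The direct and second readings were thus 1.06 apart through Bra and 0.78 apart through Flk1, against SDs of 0.391 and 0.439 over all genes. By direct ratio Mpped2 ranked 68 over Rex1, 104 over Bra and 129 over Flk1, and by the smaller of the readings it ranked 53, 10693 and 407. Its high place over Bra rests on the direct array alone.

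The Mpped2 probe lay in a part of the array where ratios in general were raised. The array is printed in 48 blocks, and the scanner background holds 1 value for each block. The block of Mpped2, with 604 probes, had the highest Cy3 background of all blocks on each of the 5 arrays, between 8105.5 and 10168. The median log2 ratio of that block was 0.88 in Bra over Rex1, 0.56 in Flk1 over Rex1, 0.69 in Nkx2.5 over Rex1, 0.20 in Nkx2.5 over Bra and 0.50 in Nkx2.5 over Flk1, where the median of all genes was at most 0.01.

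A log2 ratio of 1 or more was reached by 40.9% of the probes of this block in Bra over Rex1, by 22.7% in Flk1 over Rex1 and by 29.8% in Nkx2.5 over Rex1. Over all probes the shares were 3.16%, 3.43% and 3.47%. For Nkx2.5 over Bra and over Flk1 they were 0.7% and 14.1% in the block, against 0.45% and 1.32% over all probes. Within its block Mpped2 ranked 23, 40, 26, 5 and 22 of 604 on the arrays in the order given. Across the 48 blocks the Cy3 background and the block's median ratio had Spearman correlations of 0.65, 0.45, 0.55, 0.67 and 0.73, a description over blocks that share an array.

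With every block centred on its own median, a setting chosen after the values were seen, the direct ratios of Mpped2 were 1.35 over Rex1, 0.78 over Bra and 0.77 over Flk1 for Nkx2.5 cells. The gene still passed the rule in Nkx2.5 over Rex1, with a second reading of 1.88. In Bra over Rex1 the readings were 1.23 and 0.56 and the call was lost, and in Flk1 over Rex1 they were 0.99 and 0.58. Without background subtraction the ratios of Mpped2 were 0.13 over Rex1, 0.21 over Bra and 0.20 over Flk1, and those of Bra and Flk1 over Rex1 turned to -0.00263 and -0.027.

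The other probes sat elsewhere. The block of S100g ranked between 39 and 47 of 48 by Cy3 background, so its background was among the lowest, and block centring gave 2.08, 2.11 and 2.05 for the Nkx2.5 ratios. The block of St3gal6 probe 1 ranked between 10 and 14, and centring gave 2.12, 1.90 and 2.03. Probe 2 of St3gal6 lay in a block that ranked between 2 and 8, with block medians of 0.15 to 0.68, and centring left readings of 0.70 and 1.04 in Nkx2.5 over Rex1 and 1.29 and 0.57 in Flk1 over Rex1. With this centring the first probe kept its shape, and the second had no comparison in which both readings reached 1. The part of the background in either disagreement was not tested further.

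**Figure D3:**
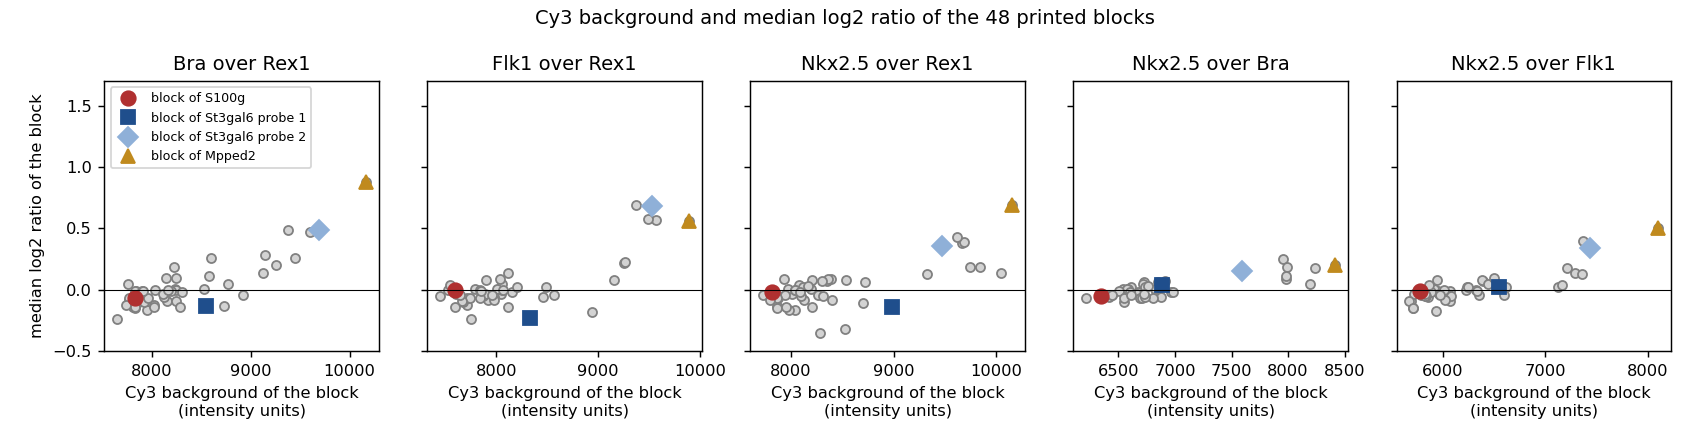
Cy3 background of each of the 48 printed blocks in intensity units (x axis) against the median log2 ratio of the probes in that block (y axis), with 1 panel for each array. The triangle, the block of Mpped2, is farthest right on every array, at block medians of 0.20 to 0.88, and the circle, the block of S100g, lies among the lowest backgrounds at -0.07 to 0.00.

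A fit of all 5 arrays at once gave each probe 1 level in each population. The later population was always in Cy5, so a dye bias that a probe keeps on every array enters these levels. A bias toward Cy5 would raise Nkx2.5 most over Rex1, and Bra and Flk1 less, and the errors cover it only in part. For S100g the level of Nkx2.5 lay 2.01 ± 0.17 above Rex1, 2.15 ± 0.19 above Bra and 2.0 ± 0.19 above Flk1 (log2, ± the error from the average array). For St3gal6 probe 1 these differences were 1.88, 2.04 and 2.05 with the same errors. Among the earlier populations the order was Flk1, Rex1 and Bra for S100g, with neighbours 0.01 and 0.14 apart, and Rex1, Bra and Flk1 for St3gal6 probe 1, with neighbours 0.16 and 0.02 apart. No neighbours in that part of the order differed by more than the error of 0.19 to 0.24. The residual SD of the fit was 0.098 for S100g and 0.124 for St3gal6 probe 1, below the average error.

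The fitted order for Mpped2 was Nkx2.5, Bra, Flk1 and Rex1, with Nkx2.5 2.49 above Rex1, Bra 1.81 above it and Flk1 1.39 above it. A constant Cy5 bias would give Nkx2.5 the highest level and Rex1 the lowest, and its part here was not tested. The second readings in which such a bias drops out were -0.07 in Nkx2.5 over Bra and 0.48 in Nkx2.5 over Flk1. They were 1.05 in Bra over Rex1 and 0.77 in Flk1 over Rex1. The residual SD of Mpped2 was 0.471, so the error from its own arrays was 0.333 to 0.471 for a difference of populations. On that error Nkx2.5 lay 0.68 ± 0.37 above Bra, and Flk1 differed from Bra by -0.42 ± 0.47, so that these neighbours are not clearly ordered. Flk1 over Rex1 was 1.39 ± 0.37, an error that does not cover the shift of the block, and with blocks centred its readings were 0.99 and 0.58. Probe 2 of St3gal6 placed Flk1 1.48, Nkx2.5 1.46 and Bra 1.19 above Rex1, with a residual SD of 0.573, and its upper 3 populations were not separated by more than the error of 0.45 to 0.57.

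**Figure D4:**
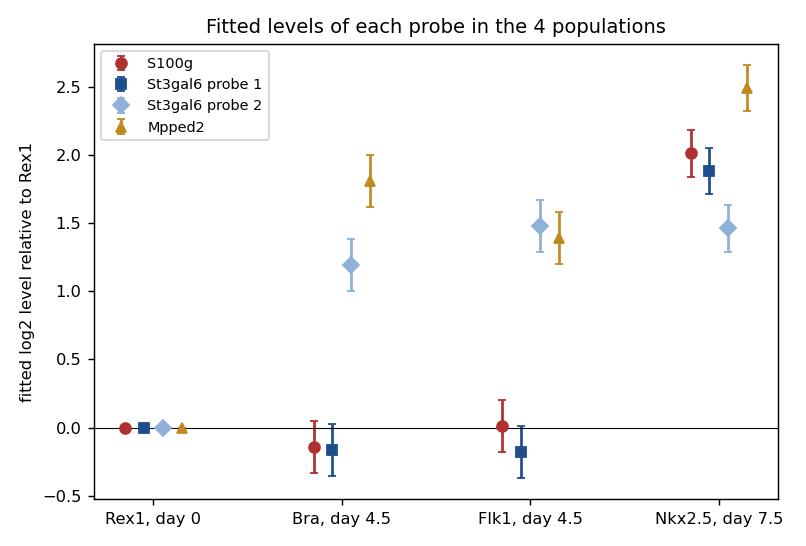
Fitted log2 level of each probe relative to Rex1 (y axis) in the 4 populations ordered by day (x axis), with the error from the average array as bars. S100g and St3gal6 probe 1 stay within 0.18 of Rex1 at day 4.5 and lie 2.01 and 1.88 above it in Nkx2.5 cells, whereas Mpped2 and St3gal6 probe 2 are 1.19 to 1.81 above Rex1 at day 4.5.

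S100g and St3gal6 were each other's nearest genes. Likeness was the Euclidean distance between the 5 direct log2 ratios. It was taken over 13472 named genes, without RIKEN or predicted names, that were well above background in Nkx2.5 cells on all 3 of their arrays. Both genes had been picked for their Nkx2.5 ratios, so their likeness on 3 of the 5 arrays follows in part from that choice. Their distance was 0.27. The next nearest to S100g were the globin gene Hbb-b2 at 0.66, the cardiac troponin gene Tnnt2 at 0.79 and Ankrd1, a gene of the heart muscle sarcomere and nucleus, at 0.80. The next nearest to St3gal6 were Spink1, a trypsin inhibitor gene, at 0.75, Ankrd1 at 0.76 and the growth factor gene Tgfb2 at 0.81. Mpped2 lay 3.08 from S100g and 3.19 from St3gal6.

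The named genes nearest to Mpped2 were the receptor gene Tgfbr1 at 0.52, the clotting factor gene F8 at 0.60, the NADPH oxidase organiser gene Noxo1 at 0.62 and the olfactory receptor gene Olfr382 at 0.75. F8 and Noxo1 were printed in the same block as Mpped2. Tgfbr1 and Olfr382 were in blocks that ranked 2 and 5 by Cy3 background on the array of Bra and Rex1. After block centring the nearest were Tcte2 at 0.37, Tgfbr1 at 0.42, Olfr875 at 0.52 and Olfr382 at 0.55, none in the block of Mpped2, while St3gal6 stayed nearest to S100g, at 0.22.

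Relatives of the 3 genes were read from lists by role. Of 14 measured S100 genes 2 were higher in Nkx2.5 over Rex1, S100g and S100a8, of which the first was chosen for this ratio, and none was lower. Of all genes 2.42% were higher and 0.702% lower. S100a8, which encodes a calcium-binding protein of myeloid cells, had readings of 1.21 and 2.62, and Rex1 passed the background threshold on 1 of 3 arrays. In Nkx2.5 over Bra and over Flk1 only S100g passed as higher and none as lower, where 0.0605% and 0.0847% of all genes were lower, and S100a8 had 0.37 and -0.08 over Bra and 1.36 and -1.01 over Flk1. At the other end S100a3 had -0.75 and -0.70 in Nkx2.5 over Rex1. The median direct ratio of the 14 was 0.27 over Rex1, 0.01 over Bra and 0.07 over Flk1, against medians of 0.01, 0.00 and 0.00 over all genes.

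Genes of vitamin D signalling and epithelial calcium transport, the setting in which calbindin-D9k is best known, were mostly level. Of 10 measured, 1 was higher in Nkx2.5 over Rex1, where 2.42% of all genes were. None was higher over Bra or Flk1, where 0.274% and 0.298% of all genes were. The medians of the list were -0.02, -0.10 and -0.17. The gene that passed was Calb1, the larger calbindin of kidney and brain, at 1.14 and 1.43. The vitamin D receptor gene Vdr was the lowest of the list, at -0.61 and -0.46, and did not pass. Trpv6, the calcium channel of the intestinal epithelium, had readings of 0.02 and -0.17.

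St3gal6, chosen for these ratios, was the only one of 18 measured sialyltransferase genes to pass in any of the 3 Nkx2.5 comparisons, and none was lower. Over Rex1, Bra and Flk1, 2.42%, 0.274% and 0.298% of all genes were higher and 0.702%, 0.0605% and 0.0847% lower. The median direct ratios of the list were -0.19 over Rex1, -0.07 over Bra and -0.15 over Flk1. Among the other genes that link sialic acid to galactose in the same way, the readings in Nkx2.5 over Rex1 were -0.09 and -0.16 for St3gal1, 0.80 and 0.84 for St3gal2, and -0.21 and -0.23 for St3gal3. They were -1.05 and -0.34 for St3gal4 and 0.14 and 0.23 for St3gal5. St8sia1, which builds the ganglioside GD3, was the lowest of the list in the fit, with readings of -0.49 and -1.34. Among the other enzymes of this branch, then, St3gal2 came nearest to the rule and St3gal4 had the lowest direct ratio.

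Genes that supply or remove sialic acid, or that build or bind sialyl Lewis x, gave no call. None of 19 measured passed as higher or lower in Nkx2.5 over Rex1, Bra or Flk1, and the medians were 0.01, -0.01 and -0.05. In these comparisons 2.42%, 0.274% and 0.298% of all genes were higher and 0.702%, 0.0605% and 0.0847% lower. Fut9, a fucosyltransferase of the Lewis x structure, was the highest in the fit at 0.76 and 1.46 over Rex1. For Fut9, Rex1 passed the background threshold on 0 of 3 arrays. Cmah, which modifies sialic acid, was the lowest at -0.06 and -0.57.

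Of 13 measured metallophosphoesterase and cyclic nucleotide phosphodiesterase genes only Mpped2 passed, over Rex1, and the list's medians were 0.15 over Rex1, 0.11 over Bra and -0.01 over Flk1. Of all genes 2.42% were higher over Rex1, 0.274% over Bra and 0.298% over Flk1. Mpped1, the closest relative of Mpped2, had 0.45 and 0.84 in Nkx2.5 over Rex1 and 0.50 and -0.17 in Bra over Rex1. Smpdl3b, a lipid phosphodiesterase gene, was the lowest at -0.67 and -0.58. Of 11 measured genes that lie near Mpped2 on chromosome 2, itself included, 2 passed in Nkx2.5 over Rex1 and none over Bra or Flk1. The 2 were Mpped2, chosen for this ratio, and the potassium channel gene Kcna4, at 1.01 and 1.10. Rex1 passed the threshold for Kcna4 on 0 of 3 arrays. Dnajc24 was the lowest, at -0.37 and -0.43, and the developmental regulator gene Pax6 had -0.01 and -0.08.

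**Figure D5:**
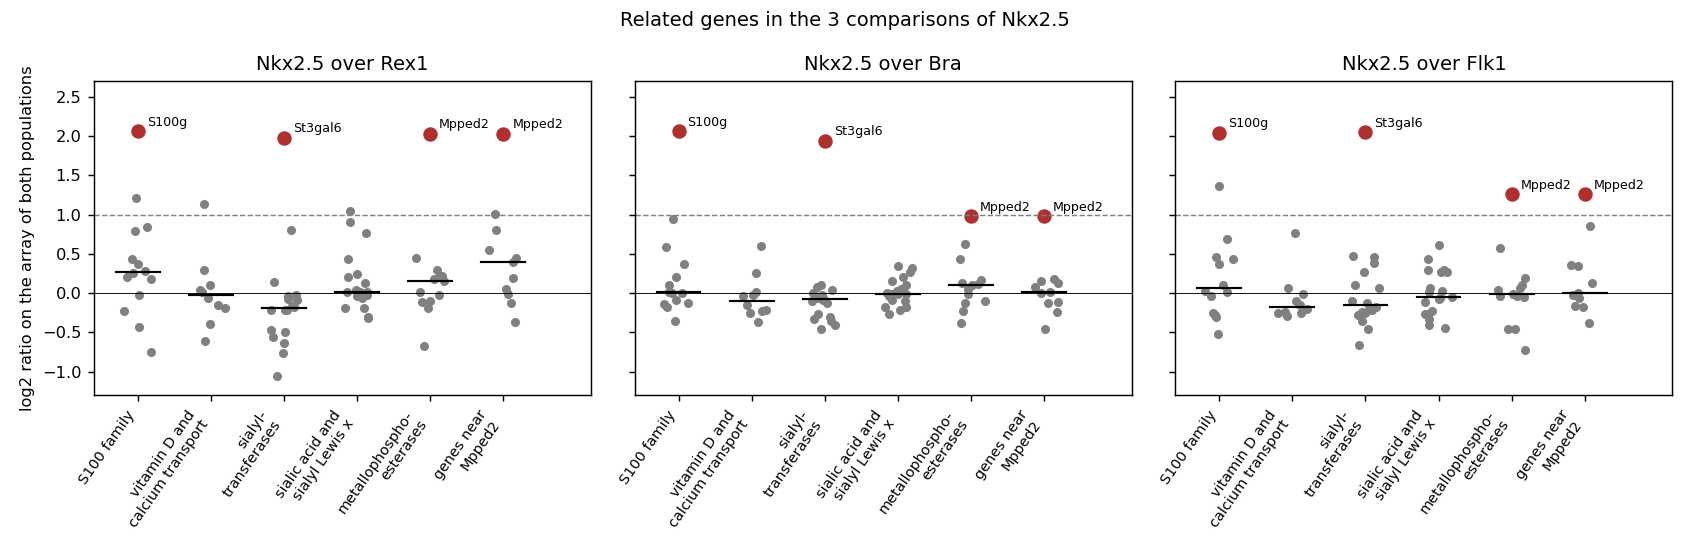
Direct log2 ratio (y axis) of each measured gene of the 6 related lists (x axis) in the 3 comparisons of Nkx2.5, with a bar at each list's median and a dashed line at a log2 ratio of 1. S100g, St3gal6 and Mpped2, the last drawn in both of its lists, have the highest direct ratio of their lists in every panel, and they were chosen for these ratios.

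Markers of cell types that the Nkx2.5 population could hold were read in the same comparisons, where 2.42% of all genes were higher over Rex1, 0.274% over Bra and 0.298% over Flk1. Of 20 cardiac muscle genes 6 were higher over Rex1, 5 over Bra and 9 over Flk1, with median direct ratios of 0.70, 0.67 and 1.04. Of 14 measured blood genes 5, 5 and 3 were higher, with medians of 0.90, 0.67 and 0.53. Of 22 visceral endoderm genes, an absorptive layer that forms on embryoid bodies, 6, 4 and 3 were higher, with medians of 0.25, 0.17 and 0.10. The other 16 of the 22 did not pass over Rex1.

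Of 11 epithelial genes 4 were higher over Rex1, 0 over Bra and 2 over Flk1, with medians of 0.28, 0.31 and 0.34. These medians were above those of visceral endoderm in each comparison. The 4 were the keratin genes Krt8 and Krt18, at direct ratios of 1.51 and 1.85, and the tight junction genes Cldn6 and Cldn7, at 1.16 and 1.15. The other 7 did not pass over Rex1, with direct ratios from -0.15 for Krt7 to 1.49 for Krt19. Of 14 neural ectoderm genes 1, 0 and 0 were higher, with medians of -0.06, -0.08 and -0.14, and 1, Otx2, was lower over Bra. Of 13 endothelial genes 0, 0 and 1 were higher, with medians of 0.35, 0.33 and 0.00, and 1, Sox18, was lower over Flk1. Cardiac, blood and visceral endoderm markers thus all had members that passed in each Nkx2.5 comparison, beside S100g and St3gal6. From which of these cells the RNA of S100g, St3gal6 and Mpped2 came was not tested.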

How the data were processed

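Per the labels' protocols, RNA was purified on columns and amplified with amino allyl nucleotides before coupling to Cy3 or Cy5 dye. The deposited scanner intensity values are a median signal with the block's background already subtracted, and the background itself, per the file headers and a check on the values. The deposited ratio of each spot is the quotient of the authors' scaled intensities. Saturated pixels and pixels under background are deposited as counts, and the 4 probes had 0 saturated pixels among 76 per spot. The authors' series table holds log2 ratios of 28524 probes, each column equal to the scanner log2 ratio plus 1 constant to within 1e-06, with column medians of -0.0846, -0.0599, -0.0578, -0.00732 and -0.0728. The sources used here name no scanner software and no genome build.

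Signal plus background was background-corrected by normexp (offset 50), then normalised by loess, giving control spots a weight of 0 (limma 3.58.1, R 4.3.3), and tables were made in Python 3.11.15. Probes were named through RefSeq genes of GRCm38.p6, 8056 by accession, 5228 by symbol and 5063 by synonym, with 574 names kept and 9924 probes unnamed. Probes named Cabp1, an old synonym of S100g and the symbol of another gene, were left out. The second reading of Nkx2.5 over Rex1 averaged the routes by way of Bra and of Flk1, and all Nkx2.5 comparisons share the Nkx2.5 population. The population named first was always in Cy5, so dye bias stays in every direct reading. It also enters the fitted levels, and it adds up in the second reading of Nkx2.5 over Rex1, which sums arrays. The other second readings are differences of arrays, in which a dye bias that a probe keeps on every array drops out. The rule was also run on simulated data with independent noise at the average array error, every probe above background and no dye bias or block shift. That run checks the calculation and bears on no call made here.

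Named genes were all members, of each list the passing genes and the highest and lowest in the fit of Nkx2.5 minus Rex1, the 4 nearest named genes of each member, the sort markers and cell type markers by list. Members and lists were chosen with earlier results of these data known. Trpv6, the remaining St3gal genes, Mpped1, Pax6 and the marker examples were named after their values were seen. With 1 array for each pair, populations were not tested against each other.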

Additional observations from a re-analysis of the deposited data

How the results depend on the processing

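The results were recomputed with a normexp offset of 10, with median centring, without the filter on dim probes, with the median of a gene's probes, from the authors' log2 values, without background subtraction and with block centring, the last chosen after the values were seen. Under the first 3 of these each count and ratio stayed close to its value. Without background subtraction 0, 0 and 0 of the 3 members passed in Nkx2.5 over Rex1, Bra and Flk1, with 0, 0 and 0 related genes (members included) and 2, 3 and 3 of all genes. The ratios were then 0.61, 0.90 and 0.90 for S100g, 0.65, 0.79 and 0.76 for St3gal6, and 0.13, 0.21 and 0.20 for Mpped2. In Bra over Rex1 and Flk1 over Rex1 they changed sign, to -0.0521 and -0.00249 for St3gal6 probe 2 and to -0.00263 and -0.027 for Mpped2. Leaving the background in adds it to both channels, which shrinks ratios by construction. The cause of the changes of sign was not tested. The authors' values kept the 3, 2 and 2 calls of members and gave 284, 42 and 37 genes higher, with 3 related genes over Rex1, the members themselves, in place of 5, and ratios of 1.64, 1.46 and 1.55 for S100g, 1.72, 1.36 and 1.55 for St3gal6, and 1.57, 0.65 and 0.92 for Mpped2. Mpped2 lost its call in Bra over Rex1 in the authors' values, where the direct ratio was 1.63 and the second reading was under 1. With the median of all probes St3gal6 had 1.52, 1.06 and 1.26, and over Flk1 1 member passed, S100g, which is also the 1 related gene that passed. Block centring gave 309 genes higher over Rex1, and 1.35 over Rex1 and 0.77 over Flk1 for Mpped2. The cause was not tested for the authors' values or block centring. No paired analysis was possible because each pair of populations was hybridised on 1 array. The precision is limited by that number and by the low Cy3 signal, whose median was 0.302 to 0.34 times the background on the Rex1 arrays.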

Other observations

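Across all genes, 33 passed as higher in Nkx2.5 cells over each of Rex1, Bra and Flk1, and 24 of them have plain gene names. By the smallest of their readings, S100g stood at 1.96 and St3gal6 at 1.77, among Tnnt2 at 2.29, Vmn1r23 at 2.04 and Hbb-y at 1.85. The list, described after its values were seen, also holds genes of other roles, such as the zinc transporter gene Slc39a8 at 1.34, the growth factor gene Tgfb2 at 1.30, the stress-response transcription factor gene Atf3 at 1.43 and the cell-surface peptidase gene Dpp4 at 1.06.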
